A study of Mus musculus with 79 samples.

Results

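The comparison set nuclei of neurons transduced with a control virus against all non-transduced nuclei of the same kind of mouse visual cortex. It used 17 of the 79 libraries of the series: 8 of mutant transduced neurons and 9 of all non-transduced nuclei, chosen by their labels alone. The mice carried 1 knock-in VIP Cre allele and 1 knock-in INTACT allele, which tags nuclei of Cre-expressing cells, so both populations come from animals in which VIP interneuron nuclei were tagged. Each was injected with an adeno-associated virus (AAV) that expresses a mutant Kir2.1, the red fluorescent protein mScarlet and a KASH tag for the nuclear envelope from the Syn1 promoter. The transduced libraries are labelled as neurons and the others as all nuclei, and every library is labelled as 10 days dark housed. The protocol gives an age of 55 to 60 days at injection, with darkness from 3 days after it. It also gives 10 to 12 days of darkness and 1 hour of light before harvest. The library labels of 10 days dark housed were followed here. Whether tagged VIP nuclei were kept in or left out of either sort is not given in the sources used here. The groups set beside them were the same 2 populations after injection of Kir2.1 without the mutation (8 and 10 libraries), VIP nuclei of mutant-injected mice (9 transduced and 9 non-transduced libraries) and 3 libraries of all nuclei of mice without AAV, all labelled male.

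Kir2.1 is an inwardly rectifying potassium channel that holds neurons near their resting potential, and a mutant that does not conduct is a common control for its overexpression. Synapsin I, the product of Syn1, coats synaptic vesicles, and fragments of its promoter are widely used to limit viral expression to neurons. Whole cortex holds excitatory neurons of several layers, GABAergic interneurons, oligodendrocytes and their precursors, astrocytes, microglia and vascular cells. Sorting transduced neurons asks which of these remain and which neurons are among them.

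Part of the neuronal specificity of Syn1 is known to lie in a site for REST, a repressor present in most non-neuronal cells. The core letters TTCAGCACC stood once in the 250 bases before the start of the mouse gene, and are in capitals below. The sequence is shown because Syn1 names the promoter of the vector; the vector's own fragment and its species were not given. It covers chrX:20920919-20921168 on the minus strand of GRCm38.p6 and was taken, like the others, from RefSeq.
Syn1: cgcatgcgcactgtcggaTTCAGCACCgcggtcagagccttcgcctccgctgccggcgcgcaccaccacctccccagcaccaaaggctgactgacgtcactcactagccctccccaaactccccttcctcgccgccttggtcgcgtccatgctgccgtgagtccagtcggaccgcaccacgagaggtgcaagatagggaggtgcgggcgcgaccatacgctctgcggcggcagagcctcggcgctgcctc
These letters occurred on either strand in the 300-base promoter window of 117 of 27025 genes (0.433%). Among 21 pan-neuronal genes with a window only Syn1 had them, and among 18 presynaptic genes Unc13a and Ppfia3 did. Such a match is a description of letters and not of binding.

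Total counts ran from 5126594 to 9267246 in mutant neurons and from 5487637 to 7275876 in all nuclei, and 20253 to 22958 and 20527 to 22718 genes had at least 1 count. Mitochondrially encoded genes held 0.172% to 0.584% of counts in mutant neurons and 0.331% to 0.694% in all nuclei. The groups held 4 male and 4 female libraries of neurons and 5 male and 4 female libraries of all nuclei. All nuclei library 1 stood apart, with a summed level of oligodendrocyte markers of 992 CPM against 2778 to 5183 in the other 8, and all nuclei library 4 had the lowest correlation with its group's median profile (Pearson's r = 0.863). Levels below are CPM, counts scaled to a common TMM-adjusted library size, given as lowest, median and highest library. The 17 libraries were scaled together. Levels of other groups were scaled within their own comparisons, those of mice without AAV with the mutant neurons, so they are not on exactly the same scale. In bulk RNA of sorted nuclei, fewer nuclei of a type and less RNA per nucleus cannot be told apart, and as the labels tie no library to an animal, each p-value reflects only how much the libraries of a group vary, which may be technical.

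Of 16683 genes tested, 197 (1.18%) were higher and 702 (4.21%) lower in mutant neurons (edgeR quasi-likelihood test, Benjamini-Hochberg adjusted p under 0.05), 5.39% in all. By at least 2-fold, 42 (0.252%) were higher and 592 (3.55%) lower. The 8 neuron libraries all lay above the 9 of all nuclei in 17 genes (0.102%) and all below in 274 (1.64%). The median log2 fold change of all genes was -0.01. Of the 702 lower genes 38 stood on a marker list of glia, immune or vascular cells and 6 on a list of neuronal classes. Among the 197 higher genes 0 and 9 did. These are counts and not shares, since the neuronal lists held more genes, and the lists are taken singly below. Without all nuclei library 1 there were 299 higher and 694 lower genes, and without libraries 1 and 4 there were 364 and 692. With a block for the replicate number, which leaves out all nuclei library 1, there were 469 and 730. Genes called higher had a median length of 118 kb from first to last exon and those called lower 50.5 kb, against 22.2 kb for all genes tested.

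The gene carried by the vector, Kcnj2, had the smallest p and the highest fold change of the genes called higher. It encodes Kir2.1 (ENSMUSG00000041695, plus strand of mm10 chromosome 11, 111066164 to 111076821) and had 168, 414 and 561 CPM in mutant neurons and 2.64, 16.5 and 22.2 CPM in all nuclei. The lowest neuron library was far above the highest of all nuclei. The log2 fold change was 4.68 ± 0.29 (SE), or 25.6-fold (edgeR, adjusted p = 2.25e-11). All nuclei of mice without AAV had 3.83 to 7.34 CPM, so the non-transduced nuclei of injected mice lay mostly above them. Counts per gene do not separate the mutant sequence from the endogenous gene.

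Nesprin-2, a KASH protein of the outer nuclear membrane, is the product of Syne2 (ENSMUSG00000063450, mm10 chromosome 12 from 75818134 to 76110926 on the plus strand), which had 51.4, 79.1 and 119 CPM in mutant neurons and 10.0, 24.0 and 42.2 CPM in all nuclei. The libraries did not overlap, and the log2 fold change was 1.69 ± 0.24 (adjusted p = 1.67e-05). Which gene the vector's KASH sequence comes from is not given. Kcnj2 and Syne2 were also the 2 genes (0.0132% of 15143 tested) called higher when transduced VIP nuclei of mutant-injected mice were set against their non-transduced ones, and 1 gene (0.0066%) was lower (0.0198% in all), while 593 genes had an unadjusted p under 0.05. There Kcnj2 averaged 747 ± 304 CPM in transduced and 21.8 ± 7.75 CPM in non-transduced VIP nuclei, and Syne2 129 ± 50.9 and 12.6 ± 6.54 CPM (SD, n = 9 each). Those 18 libraries share none with the comparison of neurons and all nuclei. Of 15 genes of the nuclear envelope and the complex that links it to the cytoskeleton, 2 were higher, 1 was lower and 12 did not pass. Among all genes tested 1.18% were higher and 4.21% lower. Syne1, the gene of nesprin-1, was higher by 0.47 ± 0.11 (adjusted p = 0.00937), but against mice without AAV by 0.49 with an adjusted p of 0.12. Lbr, the lamin B receptor, was lower (log2 fold change -1.28 ± 0.36, adjusted p = 0.03), a call lost with limma-voom (adjusted p = 0.0584) and without 8 of the 17 libraries left out in turn (adjusted p 0.0509 to 0.0717). Those were all nuclei 3, 4 and 7 and neurons 2, 3, 6, 8 and 9, and against mice without AAV it was -0.45 (adjusted p = 0.713).

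**Figure D1:**
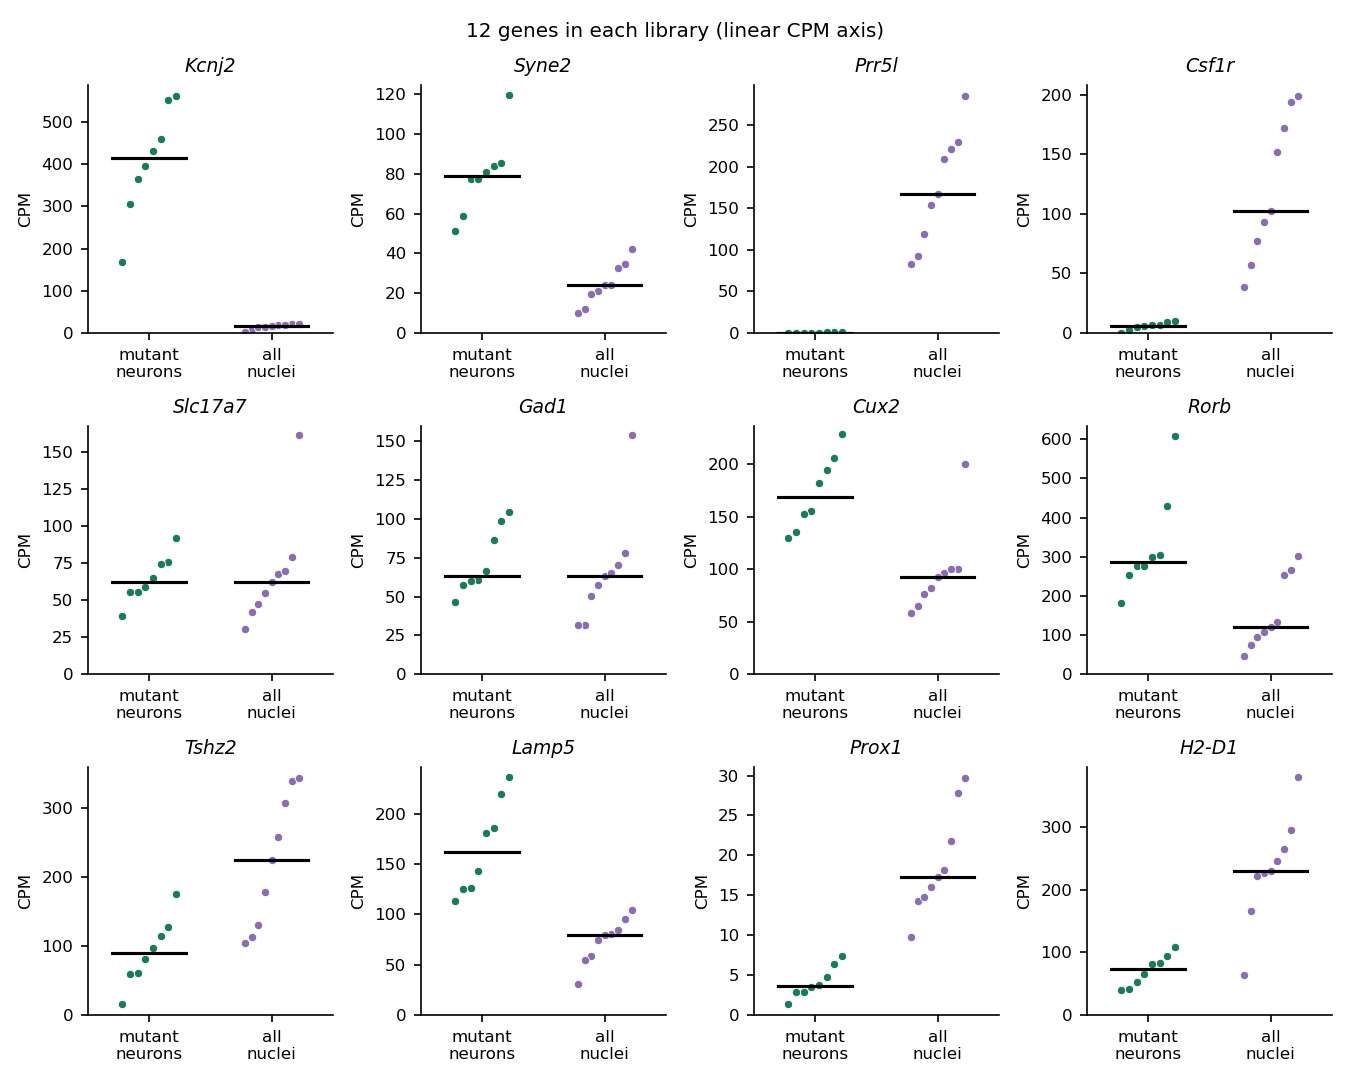
Level of 12 genes in each library, in CPM on linear axes from 0, for mutant neurons (left in each panel, 8 points) and all nuclei (right, 9 points); black lines are medians. Kcnj2, Syne2 and Lamp5 lie higher and Prr5l, Csf1r and Prox1 lower in mutant neurons with no overlap, whereas Slc17a7 and Gad1 overlap throughout.

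Genes of oligodendrocytes, which wrap axons in myelin, were among the largest falls. Of 18 markers 17 were tested, and 16 were lower and 0 higher in mutant neurons, where 4.21% of all genes tested were lower, with a median log2 fold change of -4.26. Summed over the list, mutant neurons had 404 to 709 CPM and all nuclei 992 to 5183 CPM, with no overlap even with library 1. Prr5l (ENSMUSG00000032841, chromosome 2, 101714285 to 101883027, minus strand), a regulator of the TORC2 complex, had 0, 0.105 and 1.38 CPM in mutant neurons and 83.5, 167 and 285 CPM in all nuclei. It was at 0 in 4 of the 8 neuron libraries, and its log2 fold change was -8.55 ± 0.45 (adjusted p = 1.57e-12).

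Mbp, which encodes myelin basic protein and lies on chromosome 18 (82475146 to 82585637, plus strand), had 69.2, 103 and 264 CPM in mutant neurons and 209, 488 and 859.5 CPM in all nuclei. Neuron library 2 overlapped all nuclei library 1, and the log2 fold change was -2.03 ± 0.25 (adjusted p = 2.03e-06). Mag and Mog, which encode 2 glycoproteins of the myelin surface, had medians of 1.18 and 4.06 CPM in mutant neurons and 107 and 127 CPM in all nuclei. The marker that did not pass was Enpp2, the gene of autotaxin, with 204, 231 and 326 CPM in mutant neurons and 151, 350 and 461 CPM in all nuclei (adjusted p = 0.334).

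Gap junction and adhesion genes of the same lineage were among the leading falls. Gjc3, a connexin gene of oligodendrocytes, had at most 1.18 CPM in mutant neurons and at least 28.1 CPM in all nuclei (log2 fold change -6.93 ± 0.50). Cdh19, a cadherin gene, had at most 0.53 CPM and at least 6.12 CPM (-7.44 ± 0.54; adjusted p = 3.61e-10 for each). D7Ertd443e had at most 1.07 CPM and at least 14.3 CPM (-7.47 ± 0.55, adjusted p = 3.81e-10). AC122117.2, a GENCODE gene on chromosome 18 (57405415 to 57416150, plus strand), had 2 counts over all neuron libraries and 2430 over all nuclei, a depth-adjusted ratio of 1168 with an exact 95% counting interval of 323 to 9652. That gene overlaps 4930511M06Rik and Prr5l overlaps Gm13905 on the opposite strand, and the library kit does not mark strand, so the shares of each pair are uncertain. Among other genes named here, Adap2, Csf1r, B2m, Lbr, Syne1, Rgs6, Gabra4, Cacna1c and Mog also overlap a gene on the opposite strand.

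Of 22 genes of sterol and myelin lipid synthesis 21 were tested, and 6 were lower, 0 higher and 15 did not pass (median -0.51), beside 4.21% of all genes lower. Fa2h, which hydroxylates the fatty acids of myelin lipids, had 0, 0.209 and 2.47 CPM in mutant neurons and 18.4, 54.4 and 83.3 CPM in all nuclei (log2 fold change -6.64 ± 0.56, adjusted p = 3.21e-09). Ugt8a, which makes galactosylceramide, had a log2 fold change of -3.39 ± 0.46 (adjusted p = 9.81e-06). Cers2, Elovl7 and Gal3st1, of sphingolipid and very long fatty acid synthesis, and Hmgcs1, of the sterol pathway, were the other lower members (-2.03, -1.78, -2.07 and -1.18).

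Oligodendrocyte precursors were measured less deeply. Of 11 markers 6 were tested and 3 were lower, beside 4.21% of all genes. They were Sox10 (-5.57 ± 0.72), Olig1 (-3.57 ± 0.70) and Pdgfra (-3.96 ± 1.00, with adjusted p 4.19e-06, 0.00117 and 0.0133), all 3 of them regulators or receptors of the lineage. The part of mature oligodendrocytes, whose markers also fell, in these 3 was not tested. Pdgfra was at 0 in 5 of 8 neuron libraries and in 1 of 9 of all nuclei. The proteoglycan gene Cspg4, below the filter on low counts, had 1 count over all neurons and 281 over all nuclei. The summed level of the list, 517 to 817 CPM in mutant neurons and 516.5 to 1211 CPM in all nuclei, overlapped. It was held up by genes such as Lhfpl3 with medians of 143 and 142 CPM.

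Microglia, the resident macrophages of the brain, showed a fall of nearly the whole list. All 18 markers were tested and 17 were lower (median -3.17), beside 4.21% of all genes, with summed levels of 139 to 210 CPM in mutant neurons and 460 to 1618 CPM in all nuclei. Csf1r, the receptor that keeps microglia alive (chromosome 18, 61100598 to 61132149, plus strand), had 0, 6.0 and 10.0 CPM in mutant neurons and 38.5, 102 and 199 CPM in all nuclei. No neuron library reached the lowest of all nuclei (log2 fold change -4.38 ± 0.44, adjusted p = 6.93e-08). Tmem119, a surface protein of microglia, had medians of 0 and 19.0 CPM.

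The 2 smallest falls that passed were those of Cx3cr1 (-0.70 ± 0.20, adjusted p = 0.0405) and P2ry12 (-0.86 ± 0.23, adjusted p = 0.0189), the fractalkine and ADP receptors. Their medians were 56.0 and 41.3 CPM in mutant neurons and 89.2 and 68.4 CPM in all nuclei. P2ry12 lies within Med12l on the opposite strand and Cx3cr1 overlaps Wdr48 and other genes, so these counts may hold reads of their neighbours. Aif1, which encodes Iba1, did not pass (adjusted p = 0.24). Among the leading falls over all genes was Adap2, which encodes an ArfGAP, with 0, 0 and 0.354 CPM in mutant neurons and 14.8, 25.9 and 42.2 CPM in all nuclei. Another was Ikzf1, a transcription factor gene of blood cell lineages, with at most 0.827 CPM in mutant neurons and at least 18.4 CPM in all nuclei. Their log2 fold changes were -8.20 ± 0.55 and -7.54 ± 0.56 (adjusted p = 1.7e-10 and 4.09e-10). The leukocyte gene Ptprc fell by 3.87 ± 0.74 on the log2 scale (adjusted p = 0.000927; -1.79 and 0.548 against mice without AAV), and the macrophage gene Mrc1 had too few counts to be tested. Against the 3 libraries without AAV, 6 of 16 tested microglia genes were lower (median -2.53), beside 295 of all 18231 genes tested. Csf1r in those libraries had 11.9 to 259 CPM.

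Promoters of the microglia list were searched for GAGGAAGT, letters bound by PU.1, the master regulator of the myeloid lineage. They occurred on either strand in the windows of 3 of 13 microglia genes with one, C1qc, Ctss and Inpp5d, in 0 of 13 oligodendrocyte genes and in 997 of 27025 genes (3.69%). These matches, too, describe letters and not binding, and a part of PU.1 in the lower levels was not tested. The 250 bases before the start are shown for Inpp5d (GRCm38.p6, chr1:87620062-87620311, plus strand), which encodes the phosphatase SHIP1, and C1qc (chr4:136892915-136893164, minus strand), which encodes a complement subunit, with the letters in capitals. In C1qc they stand on the opposite strand.
Inpp5d: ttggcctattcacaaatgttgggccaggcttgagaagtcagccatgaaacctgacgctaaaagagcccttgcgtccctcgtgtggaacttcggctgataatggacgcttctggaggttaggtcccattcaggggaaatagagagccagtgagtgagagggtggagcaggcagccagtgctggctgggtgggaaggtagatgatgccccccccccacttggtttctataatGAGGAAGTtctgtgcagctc
C1qc: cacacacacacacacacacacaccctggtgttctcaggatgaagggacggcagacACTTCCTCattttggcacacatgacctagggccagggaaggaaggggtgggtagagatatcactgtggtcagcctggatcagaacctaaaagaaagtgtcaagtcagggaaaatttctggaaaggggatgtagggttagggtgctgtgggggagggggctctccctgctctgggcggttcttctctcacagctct
Inpp5d had a median of 1.41 CPM in mutant neurons and 67.1 CPM in all nuclei, and C1qc 0.949 and 20.3 CPM (log2 fold changes -4.03 ± 0.55 and -3.61 ± 0.71).

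Few astrocyte genes were called. Of 18 markers 17 were tested, and 1 was lower, beside 4.21% of all genes, 0 higher and 16 did not pass. Values were below 0 for 14 and above it for 3 (median -0.40). The lower gene was Slc1a3, the glutamate transporter GLAST, with 6.25, 11.7 and 22.7 CPM in mutant neurons and 31.1, 47.9 and 107 CPM in all nuclei and no overlap (log2 fold change -1.94 ± 0.30, adjusted p = 4.99e-05). Slc1a2, the gene of the transporter GLT-1, was at a median of 349.7 CPM in mutant neurons and 362 CPM in all nuclei, and the water channel gene Aqp4 was low in both (1.19 and 2.36 CPM). The summed level overlapped, at 532 to 655 CPM in mutant neurons and 548.5 to 1066 CPM in all nuclei. Kcnj10, from the list of potassium channels, was lower (-2.98 ± 0.61, adjusted p = 0.0018). With unmutated Kir2.1, 3 of 17 tested astrocyte markers were lower (median -1.09), beside 5.39% of all genes tested there. Vascular markers could hardly be measured: 6 of 16 endothelial genes and 2 of 14 of pericytes, smooth muscle and fibroblasts were tested and 0 passed, with summed levels of at most 84.2 and 69.0 CPM in any library.

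**Figure D2:**
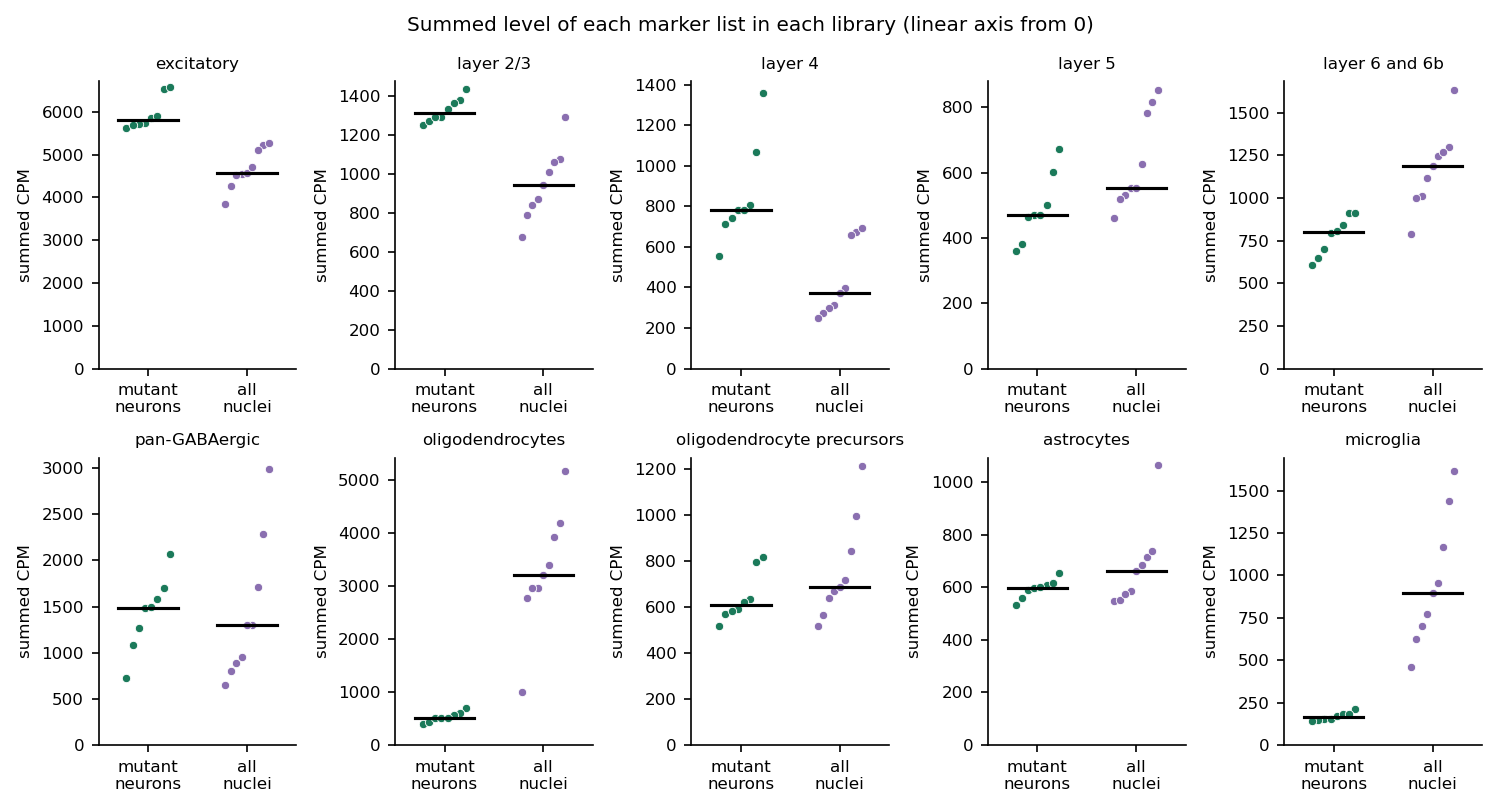
Summed CPM of the members of 10 marker lists in each library, on linear axes from 0, for mutant neurons (left, 8 points) and all nuclei (right, 9 points); black lines are medians. The sums do not overlap for excitatory neurons, oligodendrocytes and microglia and overlap for the other 7 lists; the lowest oligodendrocyte sum of all nuclei, 992 CPM, is that of library 1.

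Of 30 pan-neuronal genes 0 were called, beside 5.39% of all genes tested, with 27 above and 3 below 0 and a median log2 fold change of 0.24. Snap25, a protein of vesicle fusion, had 1080.0, 1205 and 1723 CPM in mutant neurons and 796, 1046 and 1422 CPM in all nuclei (0.27 ± 0.12, adjusted p = 0.298). Syn1 itself had 103, 159 and 178 CPM in mutant neurons and 82.9, 116 and 182 CPM in all nuclei (0.30 ± 0.15, adjusted p = 0.383). It overlaps Araf on the opposite strand. Likewise 0 of 23 genes of presynaptic release passed (median 0.28). These counts moved with the libraries and the test. Without all nuclei library 1, 1 pan-neuronal and 3 presynaptic genes were higher, and without libraries 1 and 4, 2 and 6 were. A replicate block, which leaves out library 1, gave 4 and 8, and mice without AAV as the other group 1 and 4. With no library left out, DESeq2 gave 0 and 1, limma-voom 0 and 2, and a fit of 35 libraries 0 and 1. Other scalings and filters gave 0 of both. Without all nuclei library 5, 1 presynaptic gene was higher.

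Markers of excitatory neurons lay above all nuclei in their summed level. Of 20 markers 19 were tested, 3 were higher, 0 lower and 16 did not pass (median 0.31), where 1.18% of all genes tested were higher. The median of the pan-neuronal list was 0.24, and the difference between these 2 lists was not tested. The count of 3 fell to 0 without all nuclei library 8, and to 1 without all nuclei 2, 3, 5, 6 or 9 or neurons 4, 7 or 9. Their summed level was 5619 to 6574 CPM in mutant neurons and 3857 to 5274 CPM in all nuclei, with no overlap. Slc17a7, the vesicular glutamate transporter of cortical excitatory cells, was not among them: it had 38.8, 61.9 and 92.1 CPM in mutant neurons and 30.6, 61.9 and 161 CPM in all nuclei (-0.08 ± 0.24, adjusted p = 0.95). Among those that passed were Slc30a3, the zinc transporter of glutamatergic vesicles (0.71 ± 0.19, adjusted p = 0.0245) and the activity-dependent factor Mef2c (0.60 ± 0.17, adjusted p = 0.0283). Mef2c is not confined to excitatory cells here, with a mean of 530 ± 72.1 CPM (SD) in transduced VIP nuclei of mutant-injected mice.
The Mef2c call was lost without 9 of the 17 libraries in turn (adjusted p 0.0503 to 0.0784), namely all nuclei 2, 3, 5, 6, 8 and 9 and neurons 4, 7 and 9. That of Slc30a3 was lost without all nuclei 8, neurons 5 or neurons 8 (0.0531 to 0.0651), without all nuclei libraries 1 and 4 together (0.60, adjusted p = 0.0657) and with plain library sizes (0.63, adjusted p = 0.0869). Against all nuclei of mice without AAV the log2 fold change of Slc30a3 was -0.18 (adjusted p = 0.784) and that of Mef2c 0.48 (adjusted p = 0.196).

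Among layer markers those of layers 2/3 and 4 had medians above 0 and those of layers 5 and 6 below it. Of 15 layer 2/3 genes 3 were higher and 12 did not pass (median 0.58), beside 1.18% of all genes higher; without all nuclei library 1 it was 5 of 14. Rasgrf2, an exchange factor for Ras (ENSMUSG00000021708, chromosome 13, 91880400 to 92131656, minus strand), had 224, 276 and 339.8 CPM in mutant neurons and 90.7, 139 and 209 CPM in all nuclei. Every neuron library was above every other (0.95 ± 0.14, adjusted p = 3.13e-05). Cux2, a homeobox gene of upper layers, had 129.8, 169 and 229 CPM in mutant neurons and 58.4, 93.0 and 201 CPM in all nuclei. Only all nuclei library 1, at 201 CPM, reached into the neuron range (0.84 ± 0.19, adjusted p = 0.00613). Calb1, the gene of calbindin, was the other (0.75 ± 0.19, adjusted p = 0.0133).

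All 10 layer 4 genes had positive values, with a median log2 fold change of 1.11, and 2 passed, beside 1.18% of all genes. Rorb, the nuclear receptor that marks layer 4, had 181, 287 and 607 CPM in mutant neurons and 47.2, 119 and 302 CPM in all nuclei. The groups overlapped (1.08 ± 0.29, adjusted p = 0.023), and the call was lost without neurons 4 (0.89) or all nuclei 2 (1.01; adjusted p 0.05 to 0.0712) and with DESeq2 (1.07, adjusted p = 0.0525). Kcnh5, a voltage-gated potassium channel gene, had 210.5, 284 and 407 CPM in mutant neurons and 66.5, 120.1 and 217 CPM in all nuclei (1.14 ± 0.21, adjusted p = 0.000544).

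Of 17 layer 5 genes 14 were tested, 0 were higher and 1 was lower (median -0.20), beside 4.21% of all genes lower. That one, Tshz2, a zinc finger gene of near-projecting cells, had 15.9, 89.5 and 176 CPM in mutant neurons and 104, 224 and 344 CPM in all nuclei (-1.28 ± 0.31, adjusted p = 0.0109). Fezf2, the determinant of subcerebral projection neurons, was low in both, at 7.37 and 8.81 CPM. Of 15 layer 6 and 6b genes 13 were tested, all 13 had negative values (median -0.57) and 3 were lower, beside 4.21% of all genes. The direction of this list depended on the other group. Against all nuclei of mice without AAV its median was 0.17, with 1 of 13 lower beside 295 of all 18231 genes tested. Without all nuclei library 8, 1 was lower. Tle4, a corepressor of corticothalamic neurons, had 42.5, 49.4 and 52.3 CPM in mutant neurons and 41.8, 74.8 and 104 CPM in all nuclei (-0.66 ± 0.17, adjusted p = 0.0143). Against mice without AAV it was -0.12 (adjusted p = 0.87), and Tshz2 -0.94 (adjusted p = 0.191). Hs3st4, a heparan sulfate sulfotransferase gene, was at medians of 563 and 820.2 CPM (-0.57 ± 0.15, adjusted p = 0.0209). Crym, a thyroid hormone binding protein, was lower (-1.17 ± 0.30, adjusted p = 0.0154), with -0.94 (adjusted p = 0.0526) without all nuclei library 8 or -1.01 (adjusted p = 0.0669) with limma-voom. Foxp2 did not pass (-0.45, adjusted p = 0.29).

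GABAergic interneurons were measured in both populations, and their shared genes did not differ beyond the spread between libraries except for 1. Gad1, which makes GABA, had 46.5, 63.5 and 104 CPM in mutant neurons and 31.8, 63.3 and 154 CPM in all nuclei (0.12 ± 0.25, adjusted p = 0.924), and Gad2 was also far from the threshold (0.06 ± 0.30, adjusted p = 0.973). Library 9 of all nuclei was the highest for both. Of 18 pan-GABAergic genes 14 were tested and 1 was lower (list median 0.08), where 4.21% of all genes tested were lower. Their summed levels were 727 to 2070 CPM in mutant neurons and 648 to 2992 CPM in all nuclei. The lower gene was Prox1, a transcription factor of interneurons from the caudal ganglionic eminence and also of oligodendrocytes, with 1.34, 3.6 and 7.42 CPM in mutant neurons and 9.81, 17.2 and 29.7 CPM in all nuclei and no overlap (-2.19 ± 0.36, adjusted p = 0.000117). Prox1os overlaps it on the opposite strand, and the part of the falling oligodendrocyte markers in it was not tested.

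Single interneuron classes were thinly measured. Pvalb markers passed in 0 of 10 and Vip markers in 0 of 7 tested genes. Of 10 tested Sst markers only Sst itself was lower and 9 did not pass, beside 4.21% of all genes lower. Values of that list were above 0 for 6 and below it for 4 (median 0.15). Its summed levels overlapped, at 441 to 875 CPM in mutant neurons and 423 to 821 CPM in all nuclei. Pvalb itself had medians of 7.48 and 4.15 CPM. Sst, the somatostatin gene, had 4.96, 17.6 and 38.8 CPM in mutant neurons and 20.4, 34.0 and 228 CPM in all nuclei (-1.56 ± 0.46, adjusted p = 0.0462). Its highest value came from all nuclei library 5. The call was lost without 8 of the 17 libraries (log2 fold change -1.60 to -0.90, adjusted p 0.0632 to 0.219), namely all nuclei 5 and 6 and neurons 2, 3, 5, 6, 8 and 9, and with DESeq2 (adjusted p = 0.0521), limma-voom (adjusted p = 0.0636), a term for sex (adjusted p = 0.102) and a fit of 35 libraries (adjusted p = 0.121). Vip was at 0 in 5 of 8 neuron libraries and 1 of 9 of all nuclei, with a highest value of 6.03 CPM in mutant neurons and 39.1 CPM in all nuclei (-2.28 ± 1.07, adjusted p = 0.317).

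Lamp5 stood apart among the 9 tested markers of Lamp5 and Sncg interneurons as the only one to pass. This lysosome-associated membrane protein gene (ENSMUSG00000027270, chromosome 2, 136052239 to 136069917, plus strand) is also expressed by upper-layer excitatory neurons. It had 114, 161 and 236 CPM in mutant neurons and 31.1, 79.8 and 104 CPM in all nuclei, with no overlap (1.17 ± 0.20, adjusted p = 0.000162). In all nuclei of mice without AAV it had 110.1 to 258 CPM, and against those 3 libraries the log2 fold change was -0.09 (adjusted p = 0.912).

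To compare neuron classes within each library, 16 log2 ratios of 2 neuronal genes were formed, with 0.5 CPM added to each gene, and tested by exact two-sided permutation over libraries (n = 8 and 9). None passed after adjustment over the 16. The ratio of Gad1 to Slc17a7 was -0.67 to 0.92 (median 0.08) in mutant neurons and -2.32 to 1.14 (median 0.08) in all nuclei, a mean difference of 0.19 (exact permutation p = 0.693, adjusted p = 0.833). The ratio of Cux2 to Slc17a7 differed by 0.87 (exact p = 0.0123), of Lamp5 to Gad1 by 0.98 (exact p = 0.0148), of Tshz2 to Slc17a7 by -1.43 (exact p = 0.019), of Sst to Gad1 by -1.58 (exact p = 0.0261), of Vip to Gad1 by -2.07 (exact p = 0.029) and of Rorb to Slc17a7 by 1.2 (exact p = 0.0303). Each of these 6 had an adjusted p of 0.0807. The size of the Vip to Gad1 difference depended on the CPM added, since Vip was at 0 in 5 neuron libraries: it was -3.11 with 0.1 CPM and -1.33 with 2 CPM, and 0.74 against mice without AAV (exact permutation, adjusted p = 0.845). Without all nuclei libraries 1 and 4, the difference for Cux2 to Slc17a7 was 1.13 (exact permutation, adjusted p = 0.0398), past the threshold.

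**Figure D3:**
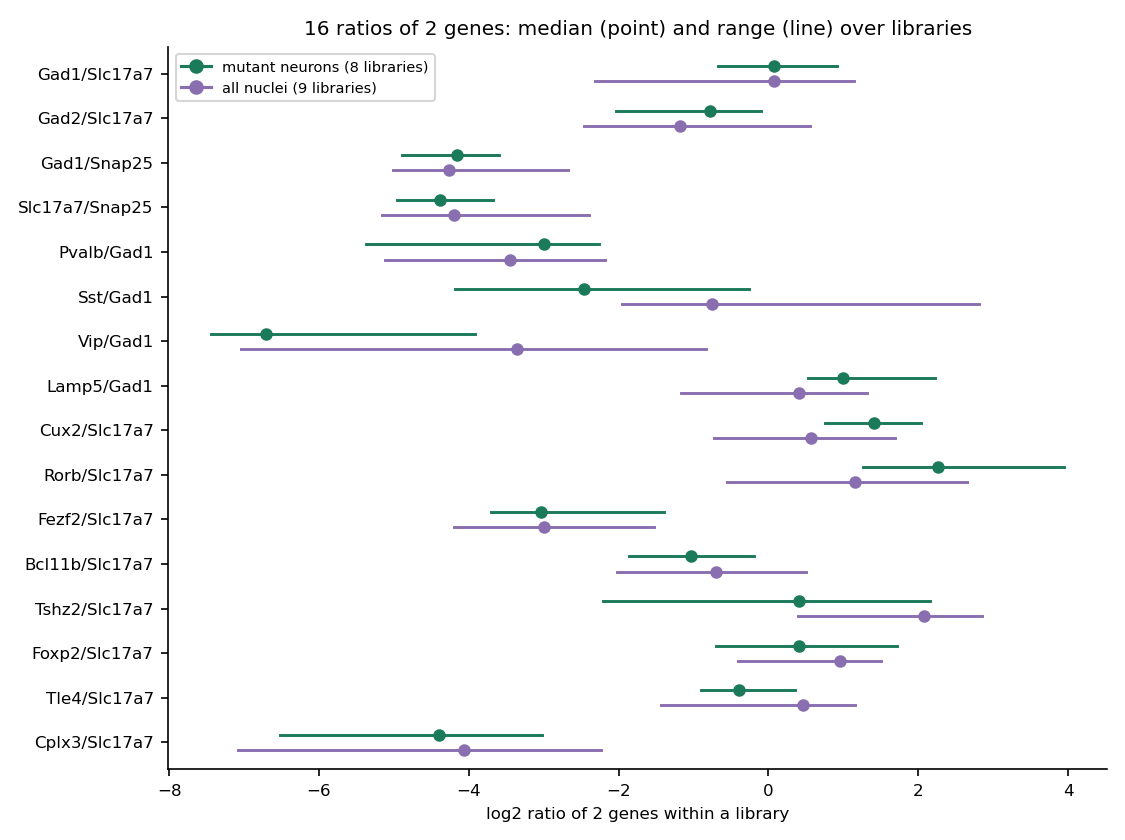
Log2 ratios of 2 genes within a library for 16 pairs; points are medians and lines the range over 8 libraries of mutant neurons (upper line of each pair) and 9 of all nuclei (lower line). Interneuron class markers are set over Gad1 and layer markers over Slc17a7, but Lamp5 is also expressed by upper-layer excitatory neurons. The other pairs set Gad1, Gad2, Slc17a7 and Snap25 against each other. Every pair of ranges overlaps.

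Outside the class markers, the genes that led the rises were these. Rgs6, which shortens G protein signals (ENSMUSG00000021219, chromosome 12, 82588292 to 83162056, plus strand), had 880.0, 1094 and 1542 CPM in mutant neurons and 393, 525 and 827 CPM in all nuclei. The groups did not overlap (1.01 ± 0.15, adjusted p = 3.37e-05). Pde7b, a cAMP phosphodiesterase gene, had 204, 389 and 431 CPM in mutant neurons and 75.5, 158 and 209 CPM in all nuclei (1.07 ± 0.18, adjusted p = 0.000135). Pdzrn3, a ubiquitin ligase gene, had 466, 629 and 743 CPM in mutant neurons and 199, 265 and 636 CPM in all nuclei, where library 1 was the highest (1.03 ± 0.18, adjusted p = 0.000246).

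Car4, a membrane carbonic anhydrase, had 38.1, 71.6 and 111 CPM in mutant neurons and 21.0, 27.8 and 46.0 CPM in all nuclei (1.28 ± 0.20, adjusted p = 7.91e-05). BC030499, a predicted kinase gene that overlaps Gm3948 on the opposite strand, had 83.7, 149 and 214 CPM in mutant neurons and 20.1, 47.1 and 129.8 CPM in all nuclei (1.47 ± 0.26, adjusted p = 0.000341). For both, all nuclei of mice without AAV were close to mutant neurons, at 32.5 to 112 and 112 to 179.9 CPM. Against those libraries the log2 fold changes were 0.02 (adjusted p = 0.985) and 0.14 (adjusted p = 0.849).

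Calls among channels and receptors were few and moved with the libraries used. Without all nuclei libraries 1 and 4, 6 of 34 potassium channel, 8 of 24 sodium and calcium channel, 4 of 14 GABA receptor and 3 of 23 glutamate receptor genes were higher, against 2, 2, 2 and 1 with all 17 libraries and 1.18% of all genes. Leaving out 1 library gave 1 to 5 potassium channel genes (5 without all nuclei 1, 4 without all nuclei 4 or 5, 1 without all nuclei 2 or 8 or neurons 3 or 4). It gave 2 to 5 sodium and calcium channel genes (5 without all nuclei 1) and 1 to 4 GABA receptor genes (4 without all nuclei 4, 1 without neurons 7). DESeq2 gave 6 sodium and calcium channel genes, and limma-voom 5 of them and 6 potassium and 4 GABA receptor genes. Of 24 glutamate receptor genes 23 were tested: Gria3 was higher (0.40 ± 0.11, adjusted p = 0.0314, lost without 8 of 17 libraries, 0.0502 to 0.0735) and Gria1 lower (-0.53 ± 0.12, adjusted p = 0.0071), both AMPA receptor subunits. Gria1 did not pass in a fit of 35 libraries (-0.50, adjusted p = 0.107) or against mice without AAV (-0.30, adjusted p = 0.371). Gria3 did not pass against them either (0.46, adjusted p = 0.175). The libraries in question for Gria3 were all nuclei 2, 3, 6, 7 and 8 and neurons 3, 4 and 9. Of 14 GABA receptor genes 2 were higher, those of the extrasynaptic subunits delta and alpha-4. Gabrd had 99.4, 166 and 239 CPM in mutant neurons and 22.6, 71.8 and 159 CPM in all nuclei (1.17 ± 0.25, adjusted p = 0.00339), and Gabra4 130.2, 173 and 215 CPM and 56.8, 109 and 151 CPM (0.60 ± 0.16, adjusted p = 0.0221; 0.55 and 0.0576 without neurons 7). Against mice without AAV, where Gabrd had 112 to 236 CPM, its log2 fold change was 0.01 (adjusted p = 0.987), and that of Gabra4 was 0.34 (adjusted p = 0.464).

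Of 35 potassium channel genes 34 were tested; Kcnh5 and Kcnb2 were higher and Kcnj10 lower, the last not against mice without AAV (-2.96, adjusted p = 0.0843). Kcnb2, a delayed rectifier gene, had a log2 fold change of 0.57 ± 0.16 (adjusted p = 0.0258), lost without 6 of the 17 libraries, all nuclei 2, 6 and 8 and neurons 3, 4 and 9 (0.0503 to 0.0664). Of 24 sodium and calcium channel genes 2 were higher, both of calcium channels: Cacna1i, of the T type, with 38.3, 54.7 and 63.6 CPM in mutant neurons and 21.5, 28.1 and 41.6 CPM in all nuclei (0.82 ± 0.18, adjusted p = 0.0044), and Cacna1c, of the L type (0.47 ± 0.12, adjusted p = 0.0122). Against mice without AAV these 2 did not pass (1.03, adjusted p = 0.0512, and 0.58, adjusted p = 0.0749).

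MHC class I molecules present peptides to T cells. Of 12 of their genes 11 were tested, 5 were lower, beside 4.21% of all genes, and 6 did not pass; all 11 had negative values (median -1.64). H2-D1 had 40.8, 73.8 and 109 CPM in mutant neurons and 64.3, 230.1 and 380.3 CPM in all nuclei (-1.71 ± 0.25, adjusted p = 2.24e-05), and H2-K1 8.14, 28.4 and 75.4 CPM and 63.4, 115 and 328 CPM (-2.04 ± 0.35, adjusted p = 0.000188). B2m, the light chain, had 52.7, 74.0 and 145 CPM in mutant neurons and 111, 161 and 405 CPM in all nuclei (-1.30 ± 0.25, adjusted p = 0.00107). The neuron and all-nuclei ranges overlapped slightly in each.
The direction depended on the other group. All nuclei of mice without AAV had 19.1 to 60.5 CPM of H2-D1, 0 to 7.57 CPM of H2-K1 and 15.5 to 41.3 CPM of B2m. Against them the log2 fold changes of mutant neurons were 1.06 (adjusted p = 0.12), 2.76 (adjusted p = 0.0502) and 1.62 (adjusted p = 0.0165). The microglia sum, which also fell in mutant neurons, moved with these genes in the comparison with injected mice, and its part in them was not tested. Nlrc5, the transactivator of these genes, and H2-Q7 were the other 2 lower members (-3.53 ± 0.65 and -2.68 ± 0.71). H2-K1, H2-D1 and H2-Q7 are close paralogs whose reads the counting could split.

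Several lists showed no member past the threshold. They were immediate early genes (0 of 18 tested, median -0.14; Fos 0 to 16.4 CPM in mutant neurons and 0 to 26.7 CPM in all nuclei), interferon-stimulated genes and sensors (0 of 14, median -0.45), p53 targets (0 of 13, median -0.17), ribosomal proteins (0 of 32, median -0.08; Rpl3 -0.08) and nuclear-encoded oxidative phosphorylation (0 of 25, median 0.07; Ndufa1 0.29).

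**Figure D4:**
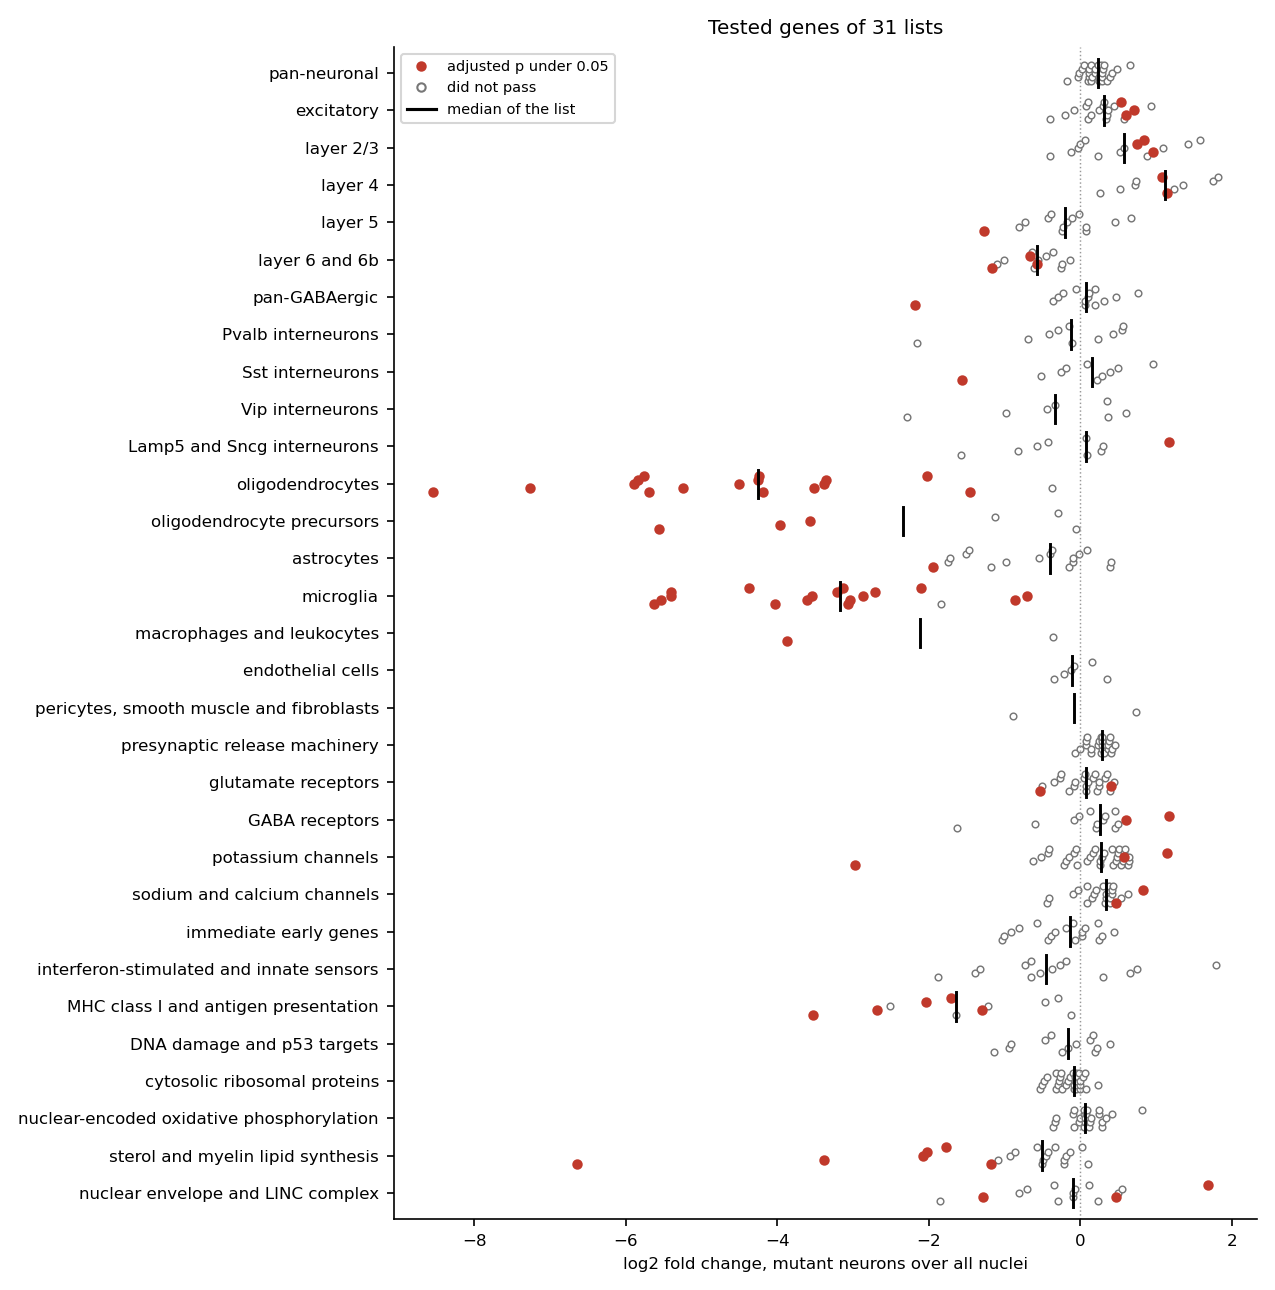
Log2 fold change of mutant neurons over all nuclei for each tested gene of 31 lists (rows); red points had an adjusted p under 0.05, open points did not, and black bars are list medians. Oligodendrocyte and microglia genes form the left of the plot (medians -4.26 and -3.17), layer 4 has the highest median (1.11), and pan-neuronal genes lie around 0.24.

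The same contrast was made with unmutated Kir2.1 in 18 libraries that share none with the 17. Of 16962 genes, 354 (2.09%) were higher and 915 (5.39%) lower. Of 16099 genes tested in both, 488 were lower in both, 71.6% of the 682 lower with the mutant and 57.2% of the 853 lower with Kir2.1. Only 44 were higher in both, 22.3% of the 197 and 12.5% of the 351, and 7 were called in opposite directions. One library of all nuclei with Kir2.1, library 1, had 157 CPM of Kcnj2, above the lowest neuron library at 146 CPM. Without it 483 genes were lower and 46 higher in both, with 8 opposite.

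Kcnj2 (3.98, adjusted p = 7.54e-06) and Syne2 (2.17, adjusted p = 1.7e-06) were higher there too, and 17 of 18 oligodendrocyte and 16 of 18 microglia genes were lower (medians -4.44 and -3.27). Excitatory genes gave 6 higher and 1 lower of 20, and layer 2/3 genes 6 higher of 14 (median 0.96). Layer 4 genes gave 0 of 9, with a median of 0.04 beside 1.11 with the mutant. For the layer 4 genes the difference between vectors was tested gene by gene and did not pass for Rorb (adjusted p = 0.879) or Kcnh5 (1.11, adjusted p = 0.0614). Pan-GABAergic genes gave 3 lower of 13 (median -1.01), and immediate early genes 7 lower of 16, Fos among them (-4.89, adjusted p = 0.00544).

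The interaction of vector and population was past the threshold in 105 of 19304 genes (0.544%), 84 with a higher contrast of neurons and all nuclei with the mutant (0.435%) and 21 with a lower one (0.109%). Of the genes named above, Car4 (difference of log2 fold changes, mutant minus Kir2.1, 1.46; adjusted p = 0.00971), Gabra4 (1.06, adjusted p = 0.028) and Syne1 (0.68, adjusted p = 0.0157) were among them. Pde7b (1.12, adjusted p = 0.0545), Gria3 (0.72, adjusted p = 0.0545) and Lamp5 (1.33, adjusted p = 0.073) were not. Lamp5, Car4 and Pde7b, which led the rises with the mutant, had log2 fold changes of -0.14, -0.17 and -0.04 with Kir2.1.

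**Figure D5:**
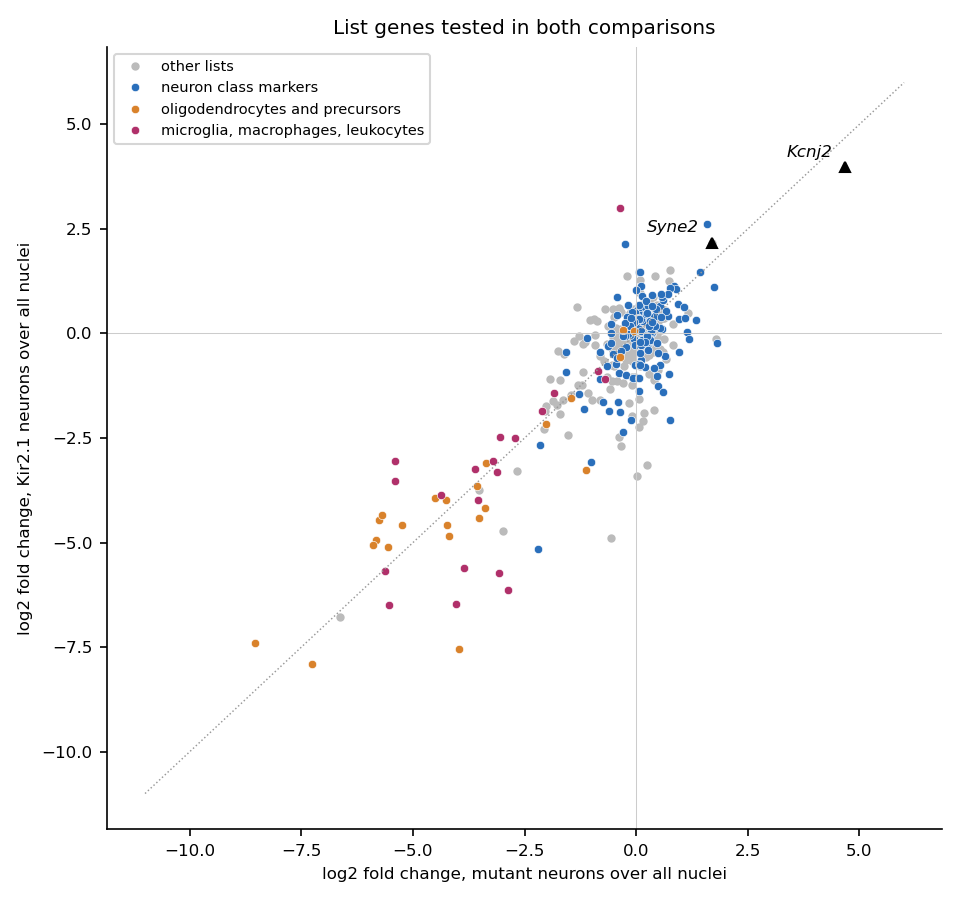
Log2 fold change of neurons over all nuclei with the mutant (x axis) and with unmutated Kir2.1 (y axis) for 456 list genes tested in both, with Kcnj2 and Syne2 as triangles; the dotted line marks equal values and the 2 axes share no libraries. Genes of oligodendrocytes and microglia lie at the lower left, and most neuron class markers lie near 0 on both axes.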

How the data were processed

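RNA of 50 to 100 sorted nuclei per library was amplified by 17 cycles of PCR and made into libraries with Nextera XT, a kit that does not mark strand, per the labels' protocols. The authors deposited whole-number counts per gene for 55335 genes without normalization. Genome build mm10 and the tools HOMER 4.9.1, STAR 2.5.3a and cutadapt 1.18 appear, without roles, per the submitters' processing notes. Which annotation and counting settings were used, and whether strand was, is not given in the sources used here. Identifiers were matched to GENCODE vM21 (GRCm38): 181 did not match, with 0.0264% of counts. The protocol also names harvest after light; library labels were followed. From the counts, genes were tested with edgeR 4.0.16 in R 4.3.3 (TMM, filterByExpr with a minimum count of 10 and total of 15), two-sided, with adjusted p under 0.05; the SE is the log2 fold change divided by the root of F. DESeq2 1.42.0 and voom of limma 3.58.1 were alternatives, as were other scalings and filters, sex as a term or split, a replicate block, a fit of 35 libraries, mice without AAV as the other group and leaving out each library. Counting intervals cover counting error only. The test was also run on simulated counts drawn independently for each library, which does not cover ties between libraries. PCR counts without molecular identifiers are not independent molecules.

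The groups, gene lists and rules were chosen with earlier results of these data known. Named genes were fixed genes (Kcnj2, Syne2, Syn1, Slc17a7, Mbp), the 8 of smallest p in each direction with a 2-fold difference and 20 CPM in the higher group, unnamed models left out, and of each list the first gene, the 2 of smallest p in each direction and exceptions; other genes named were chosen after their values were seen. Replicate numbers, which follow the word BioRep in the titles, are shared between groups, but no label ties them to an animal. Some genes of the lists are counted with them but not reported here by name.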

Additional observations from a re-analysis of the deposited data

Results flagged for a closer look

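Single libraries far from the rest of their group were looked for in 74 genes and 18 summed marker lists in both groups. Of 184 groups of values 32 had one. The cutoffs flag about 1 in 20 groups of normally distributed values. Linear CPM need not be distributed so, and AC122117.2 was flagged with 7 of its neuron libraries at 0. The 2 rates can therefore not be compared. Among mutant neurons, library 2 was highest in Mbp (264 CPM), Snap25 (1723), Cdh19 (0.53) and AC122117.2 (0.353), and library 4 in Mef2c (1548), Gria1 (1113) and Fa2h (2.47). Library 7 was highest in Olig1 (5.04) and Mrc1 (6.22), library 8 in Pvalb (21.5), and library 9 in Adap2 (0.354) and Ikzf1 (0.827).

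Among all nuclei, library 1 was highest in Cux2 (201 CPM), Vip (39.1), Slc1a3 (107), Cdkn1a (16.7), Pdzrn3 (636) and the astrocyte sum (1066). Library 9 was highest in Gad1 (154), Gad2 (102) and Pvalb (21.2) and lowest in Pde7b (75.5). Library 5 was highest in Slc17a7 (161), Sst (228) and Gabrd (159), library 2 in Fos (26.7) and H2-K1 (328), library 3 in Sox10 (50.9) and Mrc1 (9.77), library 4 in Aqp4 (16.2) and BC030499 (129.8), and library 7 in the endothelial sum (84.2).

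For 3 named genes the difference between neurons and all nuclei itself differed between the mutant and Kir2.1, by an interaction test in edgeR over 35 libraries: Car4 by 1.46 (adjusted p = 0.00971), Gabra4 by 1.06 (adjusted p = 0.028) and Syne1 by 0.68 (adjusted p = 0.0157), each larger with the mutant.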

How the results depend on the processing

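Of 87 single results 50 were past the threshold. Over all alternatives 2372 values stayed on their side of the threshold, 115 lost the call (15 against all nuclei of mice without AAV, 23 in males and 19 in females), 8 gained it and 5 called values reversed; of the 2372, 49 values not past the threshold changed sign. All 5 reversals were against all nuclei of mice without AAV: Slc30a3 (-0.18), Lamp5 (-0.0855), B2m (1.62), H2-D1 (1.06) and H2-K1 (2.76). That group gave 295 lower genes. The counts of 197 higher and 702 lower genes became 40 and 360 in libraries labelled male and 46 and 391 in those labelled female, where fewer libraries entered. Higher genes numbered 469 with a replicate block, 301 with limma-voom and 364 without all nuclei libraries 1 and 4, an alternative chosen after seeing the data; lower genes numbered 1098 without a filter. Leaving out 1 library gave 154 to 299 higher (299 without all nuclei library 1) and 593 to 744 lower. Without those 2 libraries the Cux2 to Slc17a7 difference was 1.13. Kir2.1 gave 726 higher genes without a filter. The interaction gave 167 and 59 genes with DESeq2, 266 and 202 without a filter and 206 and 51 with a replicate block. Transduced VIP nuclei gave 6 higher and 6 lower genes with DESeq2, and 4 higher with the block. With the block more list members were higher: 4 pan-neuronal, 8 presynaptic, 6 excitatory, 12 potassium channel, 9 sodium and calcium channel and 7 GABA receptor genes; Sst was not called (-1.32, adjusted p = 0.161). The causes were not tested.

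Same-numbered libraries deviated together weakly (r 0.0193 to 0.138, 1 of 8 pairs over 0.1). For each, the mean r with libraries of other numbers was lower (-0.0144 to -0.00546), and 5 of 8 libraries matched best with their own number. No label ties the numbers to animals, so the main test did not use them as pairs. Some tie between same-numbered libraries remains possible, and the counts with the replicate block are given for that reason.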

Other observations

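The genes below were chosen after their values were seen. The protocadherin alpha cluster on chromosome 18, which gives neurons their surface identity, moved as a block: all 14 entries were higher in mutant neurons (edgeR, log2 fold change 0.43 to 0.63). Pcdhac2 had a median of 125.6 CPM in mutant neurons and 82.6 CPM in all nuclei. With unmutated Kir2.1 it did not pass (edgeR, 0.26, adjusted p = 0.63), and neither did Pcdha1 (0.19, adjusted p = 0.62) or Pcdha12 (0.19, adjusted p = 0.693). Genes of this cluster share their last exons, so the 14 entries may count the same reads and are not 14 separate results. Of the tested entries of the beta and gamma clusters, 1 of 16 and 2 of 22 were higher.

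Both subunit genes of the soluble guanylate cyclase, the nitric oxide receptor, were higher: Gucy1a1 (1.19 ± 0.22, adjusted p = 0.000479) and Gucy1b1 (0.67 ± 0.17, adjusted p = 0.0121). With unmutated Kir2.1 these 2 did not pass (edgeR, 0.46, adjusted p = 0.13, and 0.45, adjusted p = 0.157). Rora, a nuclear receptor related to Rorb, was higher at medians of 1449 CPM in mutant neurons and 775 CPM in all nuclei (0.70 ± 0.15, adjusted p = 0.00281). It passed with Kir2.1 too (0.80, adjusted p = 0.000777).

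Among lower genes outside the lists, the nuclear noncoding RNA Neat1 had 0 to 2.65 CPM in mutant neurons and 48.5 to 195 CPM in all nuclei (-6.71 ± 0.51, adjusted p = 5.53e-10). The splicing regulator gene Qk had 37.5 to 76.7 CPM in mutant neurons and 172 to 476 CPM in all nuclei, and the transcription factor gene Zbtb20 33.6 to 94.5 CPM in mutant neurons and 293 to 735 CPM in all nuclei. The transferrin gene Trf had medians of 16.4 CPM in mutant neurons and 374 CPM in all nuclei. Spi1, which encodes PU.1, had at most 0.188 CPM in mutant neurons and at least 2.68 CPM in all nuclei (-6.97 ± 0.82, adjusted p = 1.07e-06).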
